A study of Mus musculus with 10 samples.

Results

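The transcripts of 10 genes that rise and fall with ERK signalling were followed in mouse embryonic stem cells (mESCs) that were all grown with an inhibitor of that pathway. They were Dusp4, Dusp6, Spry2, Spry4, Spred1, Etv4, Etv5, Egr1, Fos and Myc, taken as a fixed list of known feedback inhibitors and targets of the kinase ERK. All 10 of the 10 listed genes had a row among the 20325 genes of the table, and all 10 passed the filter that left 13201 genes for testing.

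PolyA RNA-Seq libraries were made from 5 mESC lines, with 2 libraries each. The Daxx-/- line lacks the histone chaperone DAXX, and Daxx-/-;WT is the same line carrying a DAXX transgene. Both of these, the DAXX-rescued line included, were labelled strain 129/SvEv. The H3.3 KO line is labelled as a knockout of the histone variant H3.3, H3.3 KO;WT carries a wild-type H3.3 transgene, and H3.3 KO;L126A-L130A carries the mutant H3.3 with that name in the labels. These 3 lines were labelled 129 x C57BL/6J. Transgenes were delivered by lentivirus under an EF1 promoter with puromycin selection, and each genotype is 1 line. Every line, controls included, grew without feeder cells in 2i + LIF medium, which contains the MEK inhibitor PD0325901 at 1 µM, the GSK3 inhibitor CHIR99021 at 3 µM and the cytokine LIF. No library without PD0325901 was analysed here, so the levels below are levels under MEK inhibition and give no measure of what the inhibitor did. The libraries of a line are called library 1 and library 2 after their replicate numbers. The study calls them biological duplicates, but the labels do not say whether they were separate cultures, so p-values measure the spread between these libraries.

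ERK is the last kinase of the RAS, RAF, MEK and ERK cascade, which in mESCs is driven largely by FGF4 and pushes cells out of the naive state. Active ERK phosphorylates transcription factors that switch on immediate-early genes such as Fos and Egr1, and later the genes of ETS factors and of inhibitors that act back on the cascade. MEK is the kinase that activates ERK, so PD0325901 lowers these transcripts, and their residual level is a common readout of how much ERK signalling is left. In bulk RNA, fewer cells that express a gene and less RNA per cell cannot be told apart.

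Library totals lay between 15463625 and 21396585 expected counts. Libraries of one line differed by more than counting noise in all 5 lines, and the Daxx-/- libraries were farthest apart. Daxx was at 206 CPM, counts scaled to library size, in both DAXX-rescued libraries. In the Daxx-/- line it was 82.5 and 72.8 CPM, inside the 59.3 to 101 CPM of the H3.3 lines, so this gene total does not check the Daxx-/- label. H3f3a, one of the genes that encode H3.3, ranged from 2.84 to 10.9 CPM in the H3.3 KO-derived lines and from 381 to 494 CPM in the others. H3f3b, the other such gene, was not low in the line labelled H3.3 KO, at 509 and 720 CPM, and was at 139 to 386 CPM in its rescues against 84.3 to 380 CPM in the Daxx lines. A gene total does not show which exons the reads cover, so H3f3b does not check that label. The stem cell label was checked against 12 markers, of which 11 had a row, and their summed level ranged from 4402 CPM in Daxx-/- library 2 to 7291 CPM. Of 7 fibroblast markers, Col1a2, Col3a1, Postn, Dcn and Lum were under 1 CPM in all 10 libraries, while Thy1 was at 3.24 to 36.0 CPM and Col1a1 at 0.50 to 4.43 CPM.

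Promoters of 3 of the genes are shown because Fos and Spry2 were the members that differed between the Daxx and H3.3 lines, and Dusp6 had the lowest p among the others in any comparison of lines. RefSeq (build GRCm38.p6) held promoter windows for 5 members, Dusp6, Etv5, Fos, Spred1 and Spry2. Each sequence is the 250 bases just before the annotated start, 5′ to 3′ on the gene's strand, with matches in capitals to a shorter ETS core (CGGAA or its reverse complement), a CRE half-site (TGACGT) and a TATA box (TATAAA). The Fos window is chr12:85473640-85473889 on the plus strand, the Dusp6 window chr10:99262981-99263230 on the plus strand and the Spry2 window chr14:105896820-105897069 on the minus strand.
Fos promoter: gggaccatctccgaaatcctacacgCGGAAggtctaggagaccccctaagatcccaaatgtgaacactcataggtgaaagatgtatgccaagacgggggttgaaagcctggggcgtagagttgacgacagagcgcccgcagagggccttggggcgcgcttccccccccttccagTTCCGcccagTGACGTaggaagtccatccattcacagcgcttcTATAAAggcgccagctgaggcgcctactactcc
Dusp6 promoter: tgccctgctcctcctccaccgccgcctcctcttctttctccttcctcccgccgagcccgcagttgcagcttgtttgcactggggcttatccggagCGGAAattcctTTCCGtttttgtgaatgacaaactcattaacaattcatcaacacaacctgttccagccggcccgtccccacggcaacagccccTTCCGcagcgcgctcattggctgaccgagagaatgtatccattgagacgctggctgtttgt
Spry2 promoter: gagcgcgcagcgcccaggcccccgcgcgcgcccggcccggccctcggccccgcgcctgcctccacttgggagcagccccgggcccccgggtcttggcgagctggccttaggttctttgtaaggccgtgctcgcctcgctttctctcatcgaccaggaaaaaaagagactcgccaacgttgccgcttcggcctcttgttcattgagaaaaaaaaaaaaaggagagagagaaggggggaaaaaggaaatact

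A set of 4 motifs of ERK-responsive promoters were searched on both strands of 32851 windows of this length. These were the CArG box bound by SRF, held by 1.47% of windows, the ETS core CCGGAA (12%), the cAMP response element TGACGTCA (1.55%) and the AP-1 site TGANTCA (6.75%). None of the 6 windows of the 5 members held any of them, which says only that these letters are not in these windows. The shorter motifs were added after that result and overlap the longer ones, since CGGAA lies within CCGGAA and TGACGT within TGACGTCA. The Fos window held TGACGT between 66 and 61 bases before the start, which 6.47% of all windows contain in either orientation, and TATAAA between 33 and 28 bases before it (12.4%). The Dusp6 window held the shorter ETS core at 3 places, the Fos window at 2 and the Spred1 window at 1, against 25.2% of all windows with at least 1. The Spry2 window held none of the 7 motifs. A match is a description of the letters and not a bound site.

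Levels of the 10 genes under PD0325901 spanned a wide range. Per kilobase of exon, the median level over the 10 libraries was 117 CPM per kb for Etv5, followed by Spry2 (25.2), Fos (14.0), Etv4 (9.71), Spred1 (4.77), Dusp6 (4.18), Egr1 (3.84), Dusp4 (1.48), Spry4 (1.42) and Myc (1.04). Etv5 thus stood far above the other members on this length-corrected scale. Lengths were taken from the GENCODE annotation of GRCm38, whereas the values rest on build mm9. All other levels below are CPM without a length correction and are compared only within a gene.

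**Figure D1:**
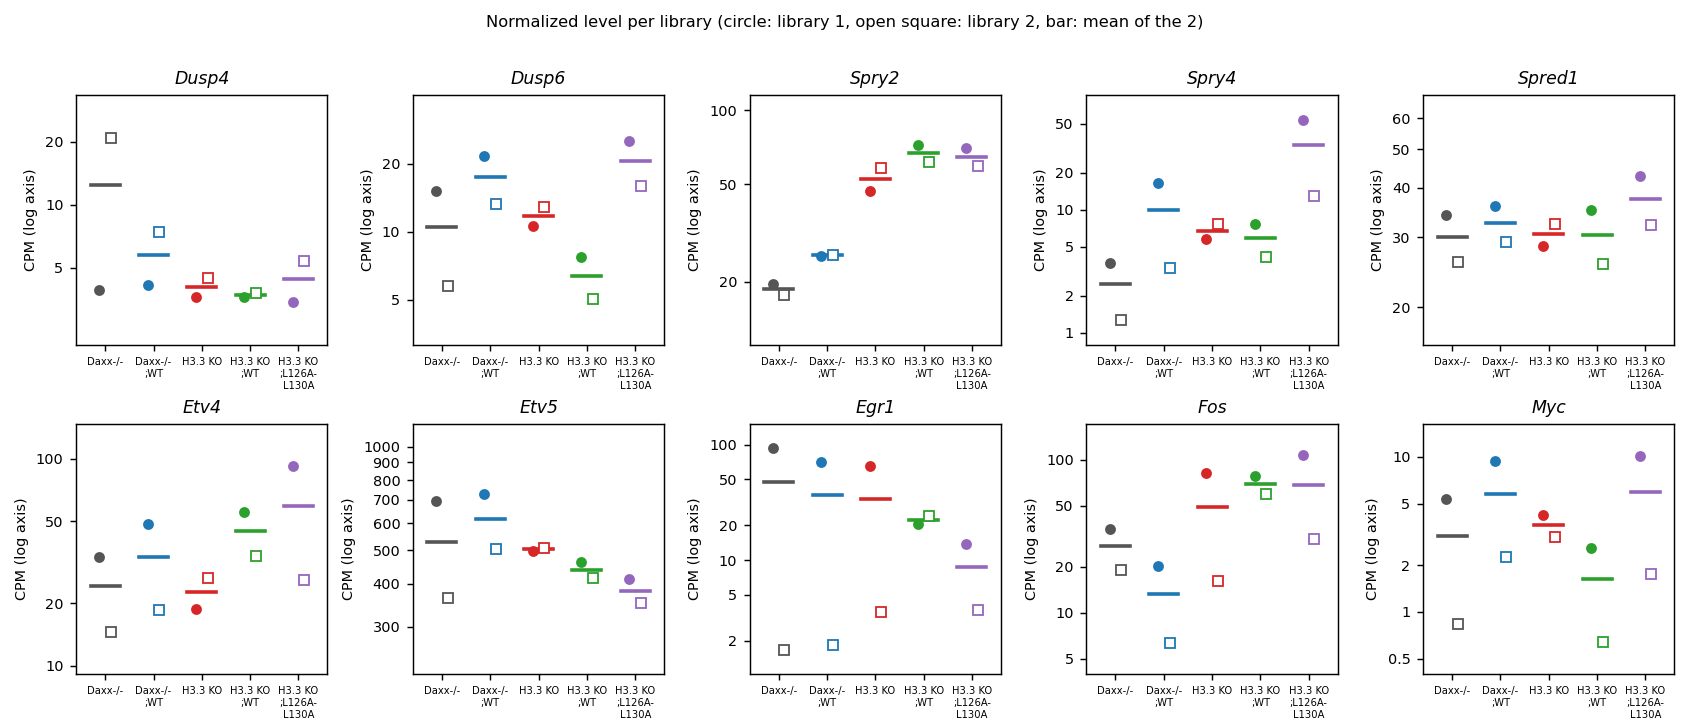
Level of each member in every library, in CPM on a log axis, for the 5 lines. Filled circles are library 1, open squares library 2 and bars the mean of the 2. Spry2 separates the H3.3 lines (46.9 to 72.2 CPM) from the Daxx lines (17.7 to 25.8 CPM), whereas Egr1 spreads from 1.66 to 93.9 CPM within the Daxx-/- line alone.

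The members also differed in how much they varied. The highest library stood 56.5-fold above the lowest for Egr1, 42.1-fold for Spry4, 16.8-fold for Fos and 15.9-fold for Myc. The same ratio was 6.28 for Etv4, 6.07 for Dusp4, 5.004 for Dusp6 and 4.08 for Spry2. Etv5 (2.07) and Spred1 (1.67) were the steadiest. On the log2(CPM + 1) scale the range of Egr1 was at percentile 99.7 of all genes tested, that of Spry4 at 99.5 and that of Fos at 98.8, whereas Etv5 lay at 46.2 and Spred1 at 19.5. The extremes were concentrated in a pair of libraries. H3.3 KO;L126A-L130A library 1 was the highest of the 10 libraries for 6 members, and Daxx-/- library 2 was the lowest for 4.

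The DUSP phosphatases remove the activating phosphates of ERK, Dusp6 in the cytoplasm and Dusp4 in the nucleus. Dusp6 (GRCm38 chromosome 10, 99263231 to 99267489, plus strand) was at 15.2 and 5.77 CPM in libraries 1 and 2 of Daxx-/-, and at 21.7 and 13.4 CPM in Daxx-/-;WT. It was at 10.6 and 12.8 CPM in H3.3 KO, at 7.74 and 5.05 CPM in H3.3 KO;WT and at 25.3 and 16.0 CPM in H3.3 KO;L126A-L130A. Both mutant libraries were therefore above, and both wild-type rescue libraries below, the H3.3 KO pair. The difference of the mutant from the wild-type rescue was 1.69 on the log2 scale (SE 0.47), 3.22-fold, with an adjusted p of 0.172 by the quasi-likelihood test of edgeR, so it was not called. DESeq2 called it, with an adjusted p of 0.0172. It was also called by edgeR when the replicate number was added to the fit. Against H3.3 KO, the changes were 0.81 (SE 0.46, adjusted p 0.416) for the mutant and -0.88 (SE 0.47, adjusted p 0.475) for the wild type.

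Dusp4 (chromosome 8, 34807297 to 34819894, plus strand) was low in most libraries. It was at 3.94 and 20.8 CPM in Daxx-/-, at 4.16 and 7.41 CPM in Daxx-/-;WT, at 3.62 and 4.47 CPM in H3.3 KO, at 3.62 and 3.77 CPM in H3.3 KO;WT and at 3.44 and 5.36 CPM in H3.3 KO;L126A-L130A. Daxx-/- library 2 stood alone above the other 9. The change on DAXX rescue was -1.10 (log2, SE 0.65, adjusted p 0.347 by edgeR), and without Daxx-/- library 2 it turned to 0.55. Daxx-/- library 2 was also highest in the summed level of 6 primitive endoderm markers (22.7 CPM, against a lowest of 5.55 and a median of 8.79) and of the 7 fibroblast markers (40.9 CPM, range from 4.38), of which Thy1 made 36.0 CPM. Their part in the Dusp4 value was not tested.

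Sprouty and Spred proteins block the cascade upstream of MEK, at the level of RAS and RAF activation. Spry2 (chromosome 14, 105891947 to 105896819, minus strand) gave the clearest separation of the 10 genes. It was at 19.6 and 17.7 CPM in Daxx-/- and at 25.5 and 25.8 CPM in Daxx-/-;WT. In the H3.3 lines it was at 46.9 and 58.2 CPM (KO), 72.2 and 61.5 CPM (WT) and 70.5 and 59.1 CPM (L126A-L130A). All 6 libraries of the H3.3 lines were above all 4 of the Daxx lines, by 1.48 on the log2 scale between the means of the lines (SE 0.11, 2.79-fold, adjusted p 6.1e-05 by edgeR). The difference was 1.496 (SE 0.17, adjusted p 0.0013) between the knockout lines alone and 1.38 (SE 0.17, adjusted p 0.0023) between the WT-rescued lines alone.

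Within an origin Spry2 moved less. The DAXX-rescued libraries were above the Daxx-/- libraries by 0.46 (log2, SE 0.17, adjusted p 0.17), and both H3.3 rescues were above H3.3 KO, by 0.35 (SE 0.17, adjusted p 0.415) for the wild type and 0.30 (SE 0.17, adjusted p 0.404) for the mutant. None of these was called by edgeR. The H3.3 rescues share the H3.3 KO libraries as their control, so their differences are not independent of each other.

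Spry4 behaved differently from Spry2. It was at 3.66 and 1.28 CPM in Daxx-/-, at 16.5 and 3.37 CPM in Daxx-/-;WT, at 5.78 and 7.70 CPM in H3.3 KO, at 7.68 and 4.12 CPM in H3.3 KO;WT and at 53.7 and 13.1 CPM in H3.3 KO;L126A-L130A. Both mutant libraries were above all libraries of the other H3.3 lines, although they differed 4.11-fold from each other, and DAXX-rescued library 1 also lay above mutant library 2. The change of the mutant was 2.31 (log2, SE 0.85, 4.95-fold, adjusted p 0.216) against H3.3 KO and 2.50 (SE 0.86, 5.65-fold, adjusted p 0.270) against the wild-type rescue, both by edgeR. Neither was called, while DESeq2 called both, with an adjusted p of 0.0425 and 0.0318. Spry4 also had the largest change of the 10 genes on DAXX rescue, 2.01 (SE 0.87, adjusted p 0.222 by edgeR), with overlapping libraries. These values rest on single libraries. Without DAXX-rescued library 1 the change on DAXX rescue was 0.45, smaller than that of Fos (-2.08) or Egr1 (-4.68). Without mutant library 1 the change of the mutant was 0.96 against H3.3 KO and 1.15 against the wild-type rescue.

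Mutant library 1, the highest library for Spry4, was also the highest in the summed level of 6 primed epiblast markers, at 288 CPM against a lowest of 58.3 and a median of 87.6 CPM. Nearly all of this sum was Dnmt3b, at 279 CPM there and 98.7 CPM in mutant library 2. The defining marker Fgf5 was at 1.42 CPM in library 1, low but the highest of the 10 libraries (0.22 CPM in mutant library 2). Otx2 was also at 1.42 CPM in library 1, below its 22.6 CPM in DAXX-rescued library 2. The part of these markers in the Spry4 value was not tested.

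Spred1 (chromosome 2, 117121374 to 117182279, plus strand), which brings neurofibromin to the membrane to inactivate RAS, hardly varied. It was at 34.1 and 26.1 CPM in Daxx-/-, at 35.9 and 29.2 CPM in Daxx-/-;WT, at 28.5 and 32.5 CPM in H3.3 KO, at 35.2 and 25.7 CPM in H3.3 KO;WT and at 42.9 and 32.3 CPM in H3.3 KO;L126A-L130A. Neighbouring lines in the order of means overlapped, and its largest change in a comparison was 0.30 (log2, SE 0.23, adjusted p 0.70 by edgeR), of the mutant against the wild-type rescue.

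Etv4 and Etv5 encode ETS transcription factors of the PEA3 group, whose transcripts fall when FGF signalling is blocked. Etv5 (chromosome 16, 22381309 to 22439719, minus strand) was the most abundant member per length. It was at 696 and 363 CPM in Daxx-/-, at 727 and 504 CPM in Daxx-/-;WT, at 497 and 509 CPM in H3.3 KO, at 461 and 415 CPM in H3.3 KO;WT and at 413 and 350.5 CPM in H3.3 KO;L126A-L130A. The 3 H3.3 lines formed an order without overlap, with H3.3 KO highest (503 ± 8.65 CPM, SD, n = 2), then the wild-type rescue (438 ± 32.3 CPM) and the mutant (381 ± 43.9 CPM). These steps were small, -0.20 (SE 0.28, adjusted p 0.817) for the wild type and -0.40 (SE 0.28, adjusted p 0.522) for the mutant on the log2 scale against H3.3 KO, and neither was called by edgeR.

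Etv4 (chromosome 11, 101769742 to 101785371, minus strand) went the other way in the H3.3 lines. It was at 18.9 and 26.6 CPM in H3.3 KO, at 55.0 and 34.1 CPM in H3.3 KO;WT and at 91.9 and 25.8 CPM in H3.3 KO;L126A-L130A, beside 33.7 and 14.6 CPM in Daxx-/- and 48.2 and 18.6 CPM in Daxx-/-;WT. The wild-type rescue lay above H3.3 KO in both libraries, by 0.97 (log2, SE 0.65, adjusted p 0.571), whereas only library 1 of the mutant did, for a change of 1.37 (SE 0.65, adjusted p 0.328). Neither passed the edgeR test.

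Egr1 and Fos are immediate-early genes, transcribed within minutes of ERK activation through SRF and its ternary complex partners, and encode a zinc finger factor and a subunit of AP-1. Egr1 differed more between libraries of one line than between lines. It was at 93.9 and 1.66 CPM in Daxx-/-, at 70.6 and 1.85 CPM in Daxx-/-;WT and at 64.6 and 3.54 CPM in H3.3 KO. It was at 20.6 and 23.9 CPM in H3.3 KO;WT and at 13.9 and 3.72 CPM in H3.3 KO;L126A-L130A. Library 1 thus exceeded library 2 by 56.5-fold, 38.1-fold, 18.3-fold and 3.73-fold in 4 lines, and the order was the opposite in the wild-type rescue (1.16-fold). The low libraries were not empty, with 30 counts for Egr1 in Daxx-/- library 2. With this spread no comparison between lines approached a call: the largest, -1.97 for the mutant against H3.3 KO, had an SE of 1.83 (adjusted p 0.637 by edgeR).

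Fos (chromosome 12, 85473890 to 85477273, plus strand) was at 35.5 and 19.0 CPM in Daxx-/- and at 20.2 and 6.40 CPM in Daxx-/-;WT. It was at 82.2 and 16.1 CPM in H3.3 KO, at 78.5 and 60.1 CPM in H3.3 KO;WT and at 107 and 30.5 CPM in H3.3 KO;L126A-L130A. The H3.3 lines were higher than the Daxx lines by 1.69 on the log2 scale (SE 0.55, 3.24-fold, adjusted p 0.0365 by edgeR), although the libraries of the origins overlapped. This call was lost when any of 6 of the 10 libraries was left out, with an adjusted p between 0.058 and 0.115 (library 2 of either Daxx line, H3.3 KO library 1, both H3.3 KO;WT libraries or mutant library 1). It was also lost between the knockout lines alone (0.85, adjusted p 0.475) and between the WT-rescued lines alone (2.38, adjusted p 0.082). On DAXX rescue Fos changed by -1.03 (SE 0.83, adjusted p 0.486), with overlapping libraries.

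Myc (chromosome 15, 61985391 to 61990374, plus strand), a growth-promoting factor whose protein ERK also stabilizes, was the lowest member per length. It was at 5.38 and 0.83 CPM in Daxx-/-, at 9.36 and 2.24 CPM in Daxx-/-;WT, at 4.25 and 3.04 CPM in H3.3 KO, at 2.60 and 0.64 CPM in H3.3 KO;WT and at 10.2 and 1.75 CPM in H3.3 KO;L126A-L130A. The lowest value rests on 11 counts. Library 1 was the higher in all 5 lines, and the lines overlapped at each step of their order. The wild-type rescue libraries were both below the H3.3 KO libraries, by 1.18 on the log2 scale (SE 1.11, adjusted p 0.707 by edgeR), which was not a call.

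A gene was called differentially expressed (DE) where it changed 2-fold or more with an adjusted p below 0.05. By that rule 0 of the 10 members were DE on DAXX rescue (edgeR), where 1.08% of all genes tested were. The count was also 0 for the wild-type H3.3 rescue (0.25% of all genes), the mutant H3.3 rescue (0.788%) and the mutant against the wild-type rescue (0.515%). DESeq2 called 0, 0, 1 and 2 members in these comparisons in turn, where it called 4.03%, 1.58%, 3.36% and 2.45% of all genes, and limma called 0 in each. With the replicate number added to the fit, edgeR called 1 member, Dusp6, for the mutant against the wild type, where 1.77% of all genes were DE. Without Daxx-/- library 1, edgeR called 2 members on DAXX rescue, Dusp4 (log2 -1.85, adjusted p 0.029) and Dusp6 (1.605, adjusted p 0.048), in a setting where 8.18% of all genes were DE. At an unadjusted p under 0.05 there were 2 members on DAXX rescue (Spry2 and Spry4, against 21.8% of all genes), 0 on wild-type rescue (13.3%), 1 on mutant rescue (Spry4, 16.9%) and 2 for the mutant against the wild type (Dusp6 and Spry4, 12.3%). A p above the threshold does not show that levels were the same.

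The comparison of origins, the mean of the 3 H3.3 lines against that of the 2 Daxx lines, called 2 members, Spry2 and Fos, both higher in the H3.3 lines, where 12.5% of all genes were DE. At an unadjusted p under 0.05 there were 3 members, with Dusp4 lower in the H3.3 lines (log2 -1.06, SE 0.41, adjusted p 0.068 by edgeR), against 49.5% of all genes. Leaving out a library moved the count of DE members between 1 and 3, with Dusp4 added without Daxx-/- library 1 and Spry4 without DAXX-rescued library 1. The shares of members were thus close to that of all genes by the DE rule and below it by the unadjusted p. Origin, strain, derivation and the missing gene coincide in these lines and cannot be told apart.

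**Figure D2:**
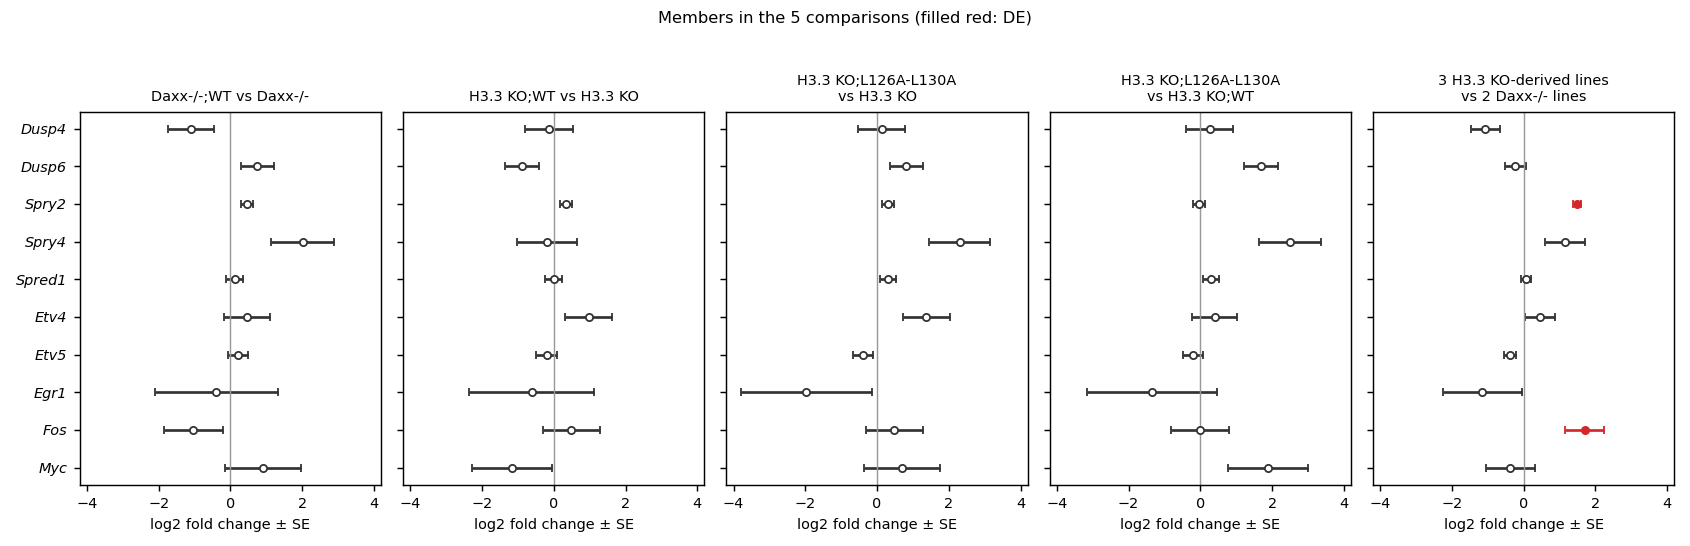
Log2 fold change of each member with its standard error in the 5 comparisons, from the edgeR fit of all 10 libraries. Filled red points are DE. Only Spry2 and Fos in the comparison of origins are red, and the bars of Egr1 and Myc are the widest.

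Separation of the libraries was read against its own background, since 2 against 2 libraries often do not overlap. On DAXX rescue 1 member, Spry2, did not overlap, against 46.5% of all genes. On wild-type H3.3 rescue 2 members were higher without overlap (Spry2 and Etv4) and 3 lower (Dusp6, Etv5 and Myc), against 56.0%. On mutant rescue 3 were higher (Dusp6, Spry2 and Spry4) and 1 lower (Etv5), against 50.1%. Between the rescues, Dusp6 and Spry4 were higher in the mutant and Etv5 and Egr1 lower, against 45.3%, and between origins only Spry2 did not overlap, against 22.8%. Each of these counts was below the share of all genes.

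As a group the 10 genes had a median log2 change of 0.34 on DAXX rescue, where 7 were positive and the median of all genes was -0.02. The median was -0.16 on wild-type rescue (3 positive, all genes 0.02), 0.39 on mutant rescue (8 positive, all genes 0.03) and 0.28 for the mutant against the wild type (6 positive, all genes 0.00). Between origins it was -0.08 with 5 positive (all genes -0.01). The change on DAXX rescue was also set against that on each H3.3 rescue, member by member, and the lowest adjusted p of these differences was 0.323 for the wild type and 0.602 for the mutant (edgeR, 10 members each).

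The spread between libraries of one line followed the replicate number for most members. Fos and Myc were higher in library 1 in all 5 lines, which held for 13.6% of all genes. Counting genes higher in library 1 in at least 4 lines, there were 8 of 10 members (all but Dusp4 and Spry2), against 31.8% of all genes. Dusp4 went the other way, higher in library 2 in all 5 lines. Per line, library 1 was higher for 9 members in Daxx-/-, 8 in Daxx-/-;WT, 3 in H3.3 KO, 8 in H3.3 KO;WT and 9 in H3.3 KO;L126A-L130A, where the share of all genes higher in library 1 lay between 48.8% and 50.8%. The H3.3 KO line thus stood apart from the other 4 by this count, but not for every gene. Its ratio of library 1 to library 2 was the largest of the 5 lines for Fos (5.115). For Egr1 the ratio was 18.3 in H3.3 KO, and H3.3 KO;WT was the line with the opposite order (0.862).

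This comparison was made because the members had been seen to differ in that way, so it describes them and was not planned. In a fit with line and replicate number, library 1 exceeded library 2 by 3.34 on the log2 scale for Egr1 (SE 0.86, adjusted p 0.080), 1.94 for Myc (SE 0.33, adjusted p 0.067) and 1.41 for Fos (SE 0.26, adjusted p 0.067), all by edgeR. The difference was 1.29 for Spry4, 0.94 for Etv4, 0.62 for Dusp6, 0.36 for Etv5, 0.27 for Spred1 and 0.06 for Spry2. It was -0.86 for Dusp4. By the edgeR rule 0 members and 0 of the 13201 genes were DE between the replicate numbers, and the lowest adjusted p of any gene was 0.055. At an unadjusted p under 0.05 there were 9 members, against 28.7% of all genes, and 8 of them were higher in library 1, against 14.7%.

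Other tools gave other counts for the replicate number. DESeq2 called 4 members (Egr1, Fos, Myc and Spry4) among 195 genes, limma called 0 members and 1 gene in all, and without the H3.3 KO line edgeR called 4 members (Etv4, Fos, Myc and Spry4) among 351 genes, 2.69% of those tested. The labels give no day, batch or culture behind the numbers. What differed between libraries 1 and 2 was not tested.

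**Figure D3:**
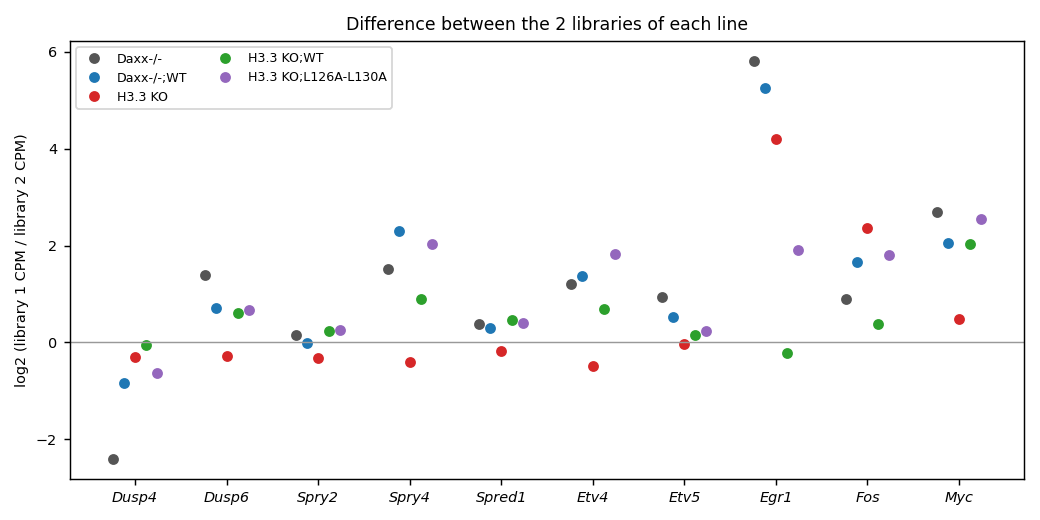
Log2 ratio of library 1 to library 2 in CPM for each member, with 1 point per line. Points of Fos and Myc are all above 0 and those of Dusp4 all below it, Egr1 reaches above 5 in the Daxx lines, and the H3.3 KO line lies below 0 for 7 members.

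Correlations of log2(CPM + 1) over the 10 libraries showed which members moved together. Libraries of a line share that line, so these are descriptions without a test. Of 45 pairs, 8 had a Pearson r of at least 0.7 and 14 were below 0, with a median of 0.29. Dusp6 and Myc had an r of 0.86, Spry4 and Spred1 0.85, and Spred1 with both Etv4 and Myc 0.83. All 8 of the high pairs lay among Spry4, Spred1, Etv4, Dusp6 and Myc, each of which was highest in H3.3 KO;L126A-L130A library 1. Spry2 and Fos had an r of 0.60, and both were called between origins, Fos with overlapping libraries. Dusp4 was negative with every other member, from -0.39 with Dusp6 to -0.66 with Egr1. Its value in Daxx-/- library 2 (20.8 CPM) stood alone, and that library was the lowest for Spry2, Spry4, Etv4 and Egr1. Correlations without single libraries were not computed. Egr1 was closest to Etv5, at 0.66.

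**Figure D4:**
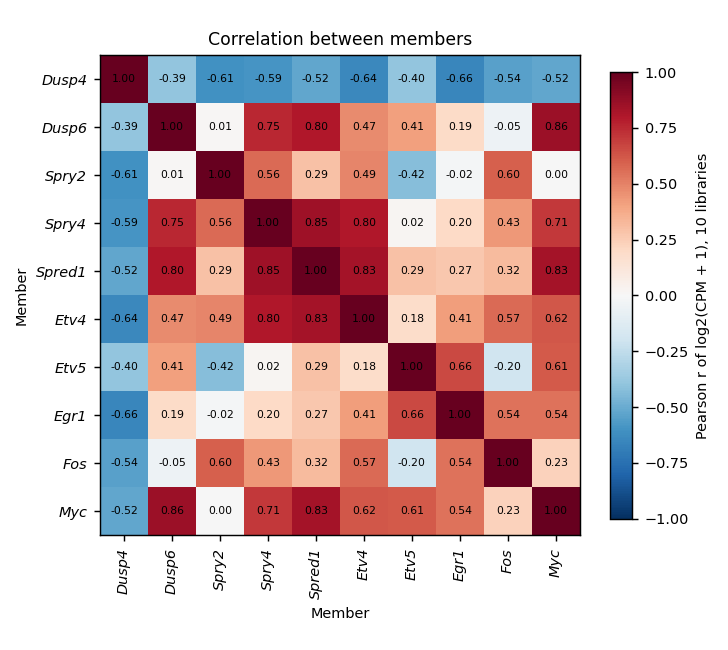
Pearson correlation of log2(CPM + 1) between members over the 10 libraries, from blue (-1) to red (1). The row of Dusp4 is blue throughout, and Dusp6, Spry4, Spred1, Etv4 and Myc form most of the dark red cells.

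Among all genes tested, those most like Dusp6 over the 10 libraries were Fbxo8 (r = 0.98), Atg7 (0.95) and Etv6 (0.95), the last an ETS repressor at 17.7 to 52.4 CPM. The genes most like Egr1 were less close, 1810029B16Rik (0.88), Wdr12 (0.86) and Rnf41 (0.85). These are the highest of 13201 values for each gene.

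The wider pathway was described from 4 lists of 78 genes, of which 76 had a row (not Hras and Spry3) and 70 were tested. Fgf5, Fgf8, Egr2, Egr3, Egr4 and Fosl1 were too low, none above 2.22 CPM. Of 14 tested ligands, receptors and adaptors and 16 members of the RAS, RAF, MEK, ERK and RSK cascade, 0 were DE in any of the 5 comparisons by edgeR, although 5 and 7 were at an unadjusted p under 0.05 on DAXX rescue and 8 and 8 between origins, against 21.8% and 49.5% of all genes. Of 12 other feedback inhibitors, 1 was lower on DAXX rescue and 1 lower in the H3.3 lines. Of 28 other targets and transcription factors, 1 was lower on DAXX rescue, and between origins 1 was higher and 3 were lower in the H3.3 lines. Of all genes 1.08% were DE on DAXX rescue and 12.5% between origins. In the H3.3 rescues and between them 0 listed genes were DE. On DAXX rescue the median log2 change was -0.71 for the other feedback inhibitors (3 of 12 positive) and -0.36 for the other targets (9 of 28). It was 0.02 for the ligands, receptors and adaptors (7 of 14) and -0.10 for the cascade (5 of 16). The median of the members, 0.34, was thus not shared by the other feedback and target genes.

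The feedback gene that was lower on DAXX rescue was Dusp9, a phosphatase of the same family as Dusp6. It was at 125.5 and 89.9 CPM in Daxx-/- and at 39.7 and 47.8 CPM in Daxx-/-;WT (log2 -1.30, SE 0.21, adjusted p 0.0292 by edgeR), while its paralogs Dusp4 and Dusp6 were not called. Atf3, a stress-induced factor of the ATF family, was at 11.5 and 11.5 CPM in Daxx-/- and at 1.83 and 2.41 CPM in Daxx-/-;WT (log2 -2.44, SE 0.34, adjusted p 0.0238). Both calls were lost when either DAXX-rescued library was left out or the comparison was fitted alone. Nearly all calls over all genes were lost in these settings too, so the loss is not particular to Dusp9 and Atf3. Fitted alone, 1 of 12462 genes tested was DE.

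Between origins the called genes did not go one way. Atf3 was higher in the H3.3 lines by 1.64 on the log2 scale (SE 0.22, adjusted p 5.8e-04), with overlapping libraries. Ccnd1, the cyclin D1 gene, was lower by 2.19 (SE 0.24, adjusted p 2.6e-04), at 21.5 to 82.1 CPM in the H3.3 lines against 103 to 234 CPM in the Daxx lines. Pea15a, whose product holds ERK in the cytoplasm, was lower by 2.20 (SE 0.23, adjusted p 2.3e-04). Nr4a1 fell by 1.18 (SE 0.11, adjusted p 1.3e-04) and Btg2 by 1.08 (SE 0.19, adjusted p 0.0022), both immediate-early genes like Fos, which was higher. Between the WT-rescued lines alone, Btg2 (log2 -0.47, adjusted p 0.286) and Pea15a (-1.19, adjusted p 0.055) were not called. Between the knockout lines alone they were called, at -1.88 and -3.03. Atf3, Ccnd1 and Nr4a1 were called in both of these comparisons. All these adjusted p values are from edgeR. Ccnd1, Pea15a, Nr4a1 and Btg2 did not overlap between origins, but Btg2 was under 2-fold (log2 -0.78) without Daxx-/- library 2.

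**Figure D5:**
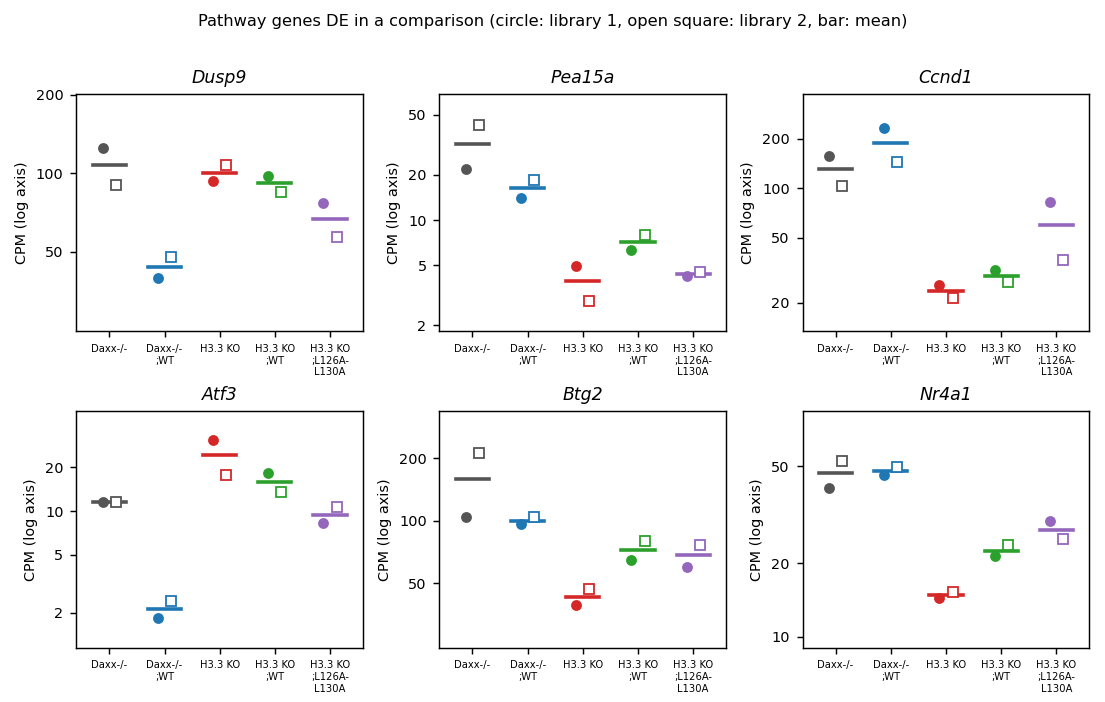
Level in CPM on a log axis of the 6 listed pathway genes that were DE in any of the 5 comparisons. Library 1 is shown as filled circles, library 2 as open squares and the mean of the 2 as bars. Dusp9 and Atf3 are low in Daxx-/-;WT, and Pea15a, Ccnd1, Btg2 and Nr4a1 are lower in the 3 H3.3 lines than in both Daxx lines.

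Among the listed relatives of the members, Etv1, the third PEA3 factor, had its highest level in mutant library 1 (65.6 CPM), the library with the highest Etv4, and its lowest in Daxx-/- library 2 (4.93 CPM). Fosb, a relative of Fos, was at 7.09, 3.27, 13.2, 9.58 and 14.1 CPM in library 1 of the 5 lines and at 0.55, 0.11, 0.06, 3.48 and 0.33 CPM in library 2. Etv1 and Fosb were picked with their levels already known. As sets, the wider lists did not share the members' difference between replicate numbers. The median log2 difference of library 1 from library 2 was 0.03 for the other targets (16 of 28 positive) and 0.05 for the other feedback inhibitors (6 of 12). It was 0.78 for the members (9 of 10) and -0.01 for all genes. Single targets went both ways, with Fosb at 3.97, Etv1 at 0.93, Ier5 at -0.68 and Btg2 at -0.41.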

How the data were processed

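PolyA RNA-Seq libraries of 5 mESC lines, 2 each, were grouped by the line in their labels. The authors aligned reads with Bowtie (build mm9 in the submitters' notes) and ran RSEM. The deposited values are expected counts, although their table is named for TPM, and were rounded here. Differential expression was tested with edgeR (version 4.0.16, R 4.3.3, quasi-likelihood) in 1 fit of all 10 libraries by line, with median-of-ratios factors, on the 13201 genes that reached 1 CPM in 2 or more libraries, and Benjamini-Hochberg adjustment over them. The authors' EBSeq was not used here. A standard error is the size of the log2 change divided by the square root of F. CPM are counts scaled by library size and these factors. DESeq2 (1.42.0) and limma (3.58.1, log2(CPM + 1)) were alternatives, beside other scaling, no filter, separate fits, the replicate block and leaving out each library.

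Named genes were all members, every gene of the 4 pathway lists DE in any of the 5 comparisons, and the 3 most like Dusp6 and Egr1. Etv1, Fosb, Braf and Fgfr1 were added afterwards, as were the comparison of replicate numbers, the differences between rescues and the shorter motifs. Members and lists were chosen with earlier results of these data known. With library totals from 15463625 to 21396585, counting error is small except for the lowest values. In simulated data for the DAXX rescue, 173 of 200 changed genes were called, with 11 unchanged genes called and 0 of the wrong sign. The simulated fit held the replicate number, by which 200 other genes differed, and each planted change was larger than 2-fold. The fit behind the results had no replicate number, so these counts do not measure how many changes it would miss.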

Additional observations from a re-analysis of the deposited data

How the results depend on the processing

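Counts of DE members outside the leave-one-out settings changed with the tool and the replicate block. DESeq2 called 1 member on mutant H3.3 rescue (Spry4, against 3.36% of all genes). For the mutant against the wild type it called 2 (Dusp6 and Spry4, against 2.45%). Between origins it called 4 (Dusp4, Fos, Spry2 and Spry4, against 12.8%). Between replicate numbers it called 4 (against 1.48%), and leaving out the H3.3 KO line gave 4 there by edgeR (against 2.69%). Between the knockout lines alone and between the WT-rescued lines alone, 1 member was DE, Spry2, against 11.7% and 8.44% of all genes. Spry2 was called between origins under every alternative run. Leaving out 1 library gave 0 to 2 DE members on DAXX rescue, 1 to 3 between origins and 0 in the other comparisons of lines.

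The replicate block called 1 member, Dusp6, for the mutant against the wild type (log2 1.68, adjusted p 0.042 by edgeR), and 3 between origins (Fos, Spry2 and Spry4); over all genes it raised the DE counts from 143, 33, 104, 68 and 1648 to 621, 105, 461, 234 and 1811. Deviations of same-numbered libraries correlated between -0.044 and 0.574 over 10 pairs of lines, over 0.1 in 7. Every pair at 0.1 or below included H3.3 KO (-0.044, -0.01 and 0.069). The correlation was 0.566 between Daxx-/- and Daxx-/-;WT and 0.423 between the wild-type and mutant H3.3 rescues. Same-numbered libraries thus varied together in most pairs of lines but not in all. The labels name nothing shared behind a number, so the fit without the block was kept. It leaves out what same-numbered libraries shared in the DAXX rescue and between the H3.3 rescues.

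Of 414 single-gene results under the other alternatives, 393 kept their direction and call, 6 lost a call, 7 gained one and 8 reversed, all 8 not DE. The reversals were Egr1 on wild-type rescue (1.20 with the replicate block, 0.42 with limma), Spred1 there without the filter (0.0), Spred1 (-0.096) and Spry4 (-0.76) between the WT-rescued lines alone, and Dusp6 (0.165), Etv4 (-0.09) and Myc (0.232) between the knockout lines alone. Leaving out 1 library reversed 38 of 318 such results, none of them DE. On the log2 scale, the DAXX rescue change ranged from -1.85 to 0.55 for Dusp4, from -0.073 to 0.32 for Spred1, from -0.37 to 1.19 for Etv4, from -0.18 to 0.76 for Etv5, from -4.68 to 4.44 for Egr1 and from -0.46 to 2.80 for Myc. That of the wild-type rescue ranged from -0.28 to 0.026 for Dusp4, from -0.71 to 0.19 for Spry4, from -0.25 to 0.21 for Spred1, from -1.54 to 2.65 for Egr1 and from -0.25 to 2.11 for Fos. The mutant rescue ranged from -0.23 to 0.41 for Dusp4, from -3.19 to 1.30 for Egr1, from -0.69 to 2.10 for Fos and from -1.05 to 1.48 for Myc. The mutant against the wild type ranged from -0.11 to 0.54 for Dusp4, from -0.18 to 0.077 for Spry2, from -0.79 to 1.04 for Etv4 and from -1.18 to 0.63 for Fos, and origin from -0.50 to 0.20 for Dusp6, from -0.028 to 0.16 for Spred1, from -2.23 to 1.27 for Egr1 and from -0.96 to 0.56 for Myc. Except for the settings that use fewer libraries, the cause was not tested. A line left with 1 library was assumed to vary like the others. A separate fit of the comparison of origins was not run, since it uses all 10 libraries. Depth limits the lowest values, Myc at 11 counts and Spry4 at 23 and Egr1 at 30 in their lowest libraries.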
